A study of Mus musculus with 4 samples.

Results

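miR-223 and miR-126a are microRNAs (miRNAs), short RNAs that pair with messenger RNAs through a seed near their 5′ end and repress them. Each is cut from a hairpin that yields a 5p and a 3p arm. The 4 mature arms mmu-miR-223-3p, mmu-miR-223-5p, mmu-miR-126a-3p and mmu-miR-126a-5p (mmu for mouse, left out below) were taken by name from the 1091 known mature miRNAs counted in CD4+ T cells. The hairpins were selected on their read counts in stimulated and unstimulated cells, which lay in opposite directions in these same libraries, so the stimulation values are a description and carry no test.

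Small RNA libraries were made from CD4+ T cells of C57BL/6 mice, in 4 groups of 1 library each. These were Cbl-b-/- cells stimulated with anti-CD3 for 48 h, WT cells stimulated with anti-CD3 for 48 h, Cbl-b-/- cells left unstimulated and WT cells left unstimulated. Cbl-b is a ubiquitin ligase known as a brake on T cell receptor signalling, and anti-CD3 is an antibody that triggers this receptor. The cells of all groups were cultured in RPMI-1640 medium with serum and antibiotics, and the labels call the unstimulated cells naive. The sources used here do not give the number, age and pooling of the mice, or how pure the isolated cells were.

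In the blood system miR-223 is a myeloid miRNA, made from its own gene and most abundant in neutrophils and monocytes, where it limits granulocyte production and inflammatory activation. miR-126 lies within Egfl7, a gene of blood vessel lining cells, and supports vascular integrity and VEGF signalling by repressing inhibitors such as Spred1. Both miRNAs are also known from megakaryocytes and platelets, and miR-126 from blood stem cells.

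The sequences of the arms are shown because each arm is counted by its own reads, and the letters show how far the arms differ from each other. RefSeq sequences on GRCm38.p6 were found for 3 of the 4 arms, and miR-126a-5p is named only. The seed, bases 2 to 8 counted from the 5′ end, is in capitals.
miR-223-3p: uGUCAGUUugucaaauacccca
miR-223-5p: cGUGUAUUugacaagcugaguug
miR-126a-3p: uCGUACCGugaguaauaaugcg
None of these 3 seeds occurs in another mature mouse miRNA of the same RefSeq table. No other row of the count tables had the same counts as any of the 4 arms in the 4 libraries.

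The hairpins are shown to place the arms, with both arms of Mir223 and the 3p arm of Mir126a in capitals.
Mir223: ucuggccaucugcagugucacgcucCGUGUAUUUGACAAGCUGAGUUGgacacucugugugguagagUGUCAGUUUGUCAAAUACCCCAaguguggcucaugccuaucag
Mir126a: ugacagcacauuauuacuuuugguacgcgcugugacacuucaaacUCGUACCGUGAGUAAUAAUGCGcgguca
Mir223 lies on the plus strand at chrX:96242817-96242926 (GRCm38), in an exon of the noncoding gene F630028O10Rik on the same strand. Mir126a lies on the plus strand at chr2:26591357-26591429, inside Egfl7. It is intronic in 8 Egfl7 transcripts and exonic in 1, a transcript annotated as a retained intron. The opposite strand carries Mir126b, whose miR-126b-3p had 3 reads in the Cbl-b-/- stimulated library and 1 read in each of the other libraries.

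Levels are given as reads of a miRNA per 1000000 counted known miRNA reads of its library (CPM). The libraries held 11561693 (Cbl-b-/- stimulated), 13074598 (WT stimulated), 14017277 (Cbl-b-/- unstimulated) and 15436447 (WT unstimulated) such reads. Intervals are exact 95% Clopper-Pearson intervals, which cover counting error only and not the spread between animals or cultures. PCR copies of a molecule are counted again, so even the counting error may be wider. A ratio was read as past the rule of size if it reached 2-fold, if the 2 libraries compared averaged 50 CPM or more, and if its log2 interval left out 0. The miRNAs known from T lymphocytes, 6 in all and led by miR-142a-5p, summed to 169681, 189737, 372468 and 392211 CPM in the same order of libraries. All 10 miRNAs listed as induced by T cell activation, such as miR-155-5p, were higher past the rule after stimulation in both genotypes with this scaling, as were 35.0% of all miRNAs over the minimum in Cbl-b-/- and 35.5% in WT. This list of 10 was chosen with earlier results of these data known, so its count is a description and not a check of the state labels. Cblb messenger RNA was not analysed here, so no value checks the genotype labels.

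miR-223-3p, the main mature arm of miR-223, was well below the leading T cell miRNAs in each library. It ranked 213th, 199th, 88th and 79th among the listed miRNAs in the Cbl-b-/- stimulated, WT stimulated, Cbl-b-/- unstimulated and WT unstimulated libraries. Its level was 68.2 CPM (788 reads) in Cbl-b-/- stimulated cells and 396 CPM (5546 reads) in Cbl-b-/- unstimulated cells. In WT it was 82.3 CPM (1076 reads) in stimulated and 464 CPM (7169 reads) in unstimulated cells. Both stimulated libraries were low and both unstimulated libraries high. The stimulated level was 5.81-fold lower in Cbl-b-/- (log2 -2.54, interval -2.65 to -2.43) and 5.64-fold lower in WT (log2 -2.50, -2.59 to -2.40). Of 223 miRNAs over the level minimum in Cbl-b-/- 2 had a lower ratio, and of 220 in WT 4 had a lower ratio. In these comparisons 14.8% and 14.1% of all miRNAs were past the rule and lower, and the median log2 ratios of all miRNAs were 0.34 and 0.40.

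miR-223-5p, the passenger arm of the same hairpin, had 14 reads in each stimulated library, or 1.21 CPM in Cbl-b-/- and 1.07 CPM in WT. In unstimulated cells it stood at 17.1 CPM (239 reads) in Cbl-b-/- and 20.5 CPM (317 reads) in WT. The log2 ratio of stimulated over unstimulated cells was -3.82 (-4.71 to -3.04) in Cbl-b-/- and -4.26 (-5.15 to -3.49) in WT. Both arms of miR-223 were thus low in the same libraries, the 5p arm by the wider margin. The 5p arm was under the 50 CPM minimum in each comparison.

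miR-126a-5p held most of the reads of its hairpin. Its level was 287 CPM (3321 reads) in Cbl-b-/- stimulated cells and 60.9 CPM (853 reads) in Cbl-b-/- unstimulated cells. In WT it was 291 CPM (3807 reads) in stimulated and 100.2 CPM (1546 reads) in unstimulated cells. The stimulated libraries lay close together and above both unstimulated ones, which were themselves apart. The stimulated level was 4.72-fold higher in Cbl-b-/- (log2 2.24, 2.13 to 2.35) and 2.91-fold higher in WT (log2 1.54, 1.45 to 1.63). Of the miRNAs over the minimum, 30 of 223 in Cbl-b-/- and 53 of 220 in WT had a higher ratio than miR-126a-5p, where 35.0% and 35.5% were past the rule and higher.

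miR-126a-3p, the arm best known from endothelium, had lower counts. It stood at 36.3 CPM (420 reads) in Cbl-b-/- stimulated cells, against 10.7 CPM (150 reads) in Cbl-b-/- unstimulated cells. In WT it stood at 43.1 CPM (563 reads) in stimulated cells, against 18.5 CPM (285 reads) in unstimulated cells. The log2 ratios were 1.76 (1.49 to 2.04) in Cbl-b-/- and 1.22 (1.01 to 1.43) in WT. With a minimum of 10 CPM in place of 50, which this arm reached, 36.9% of all miRNAs in Cbl-b-/- and 39.2% in WT were past the rule and higher.

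**Figure D1:**
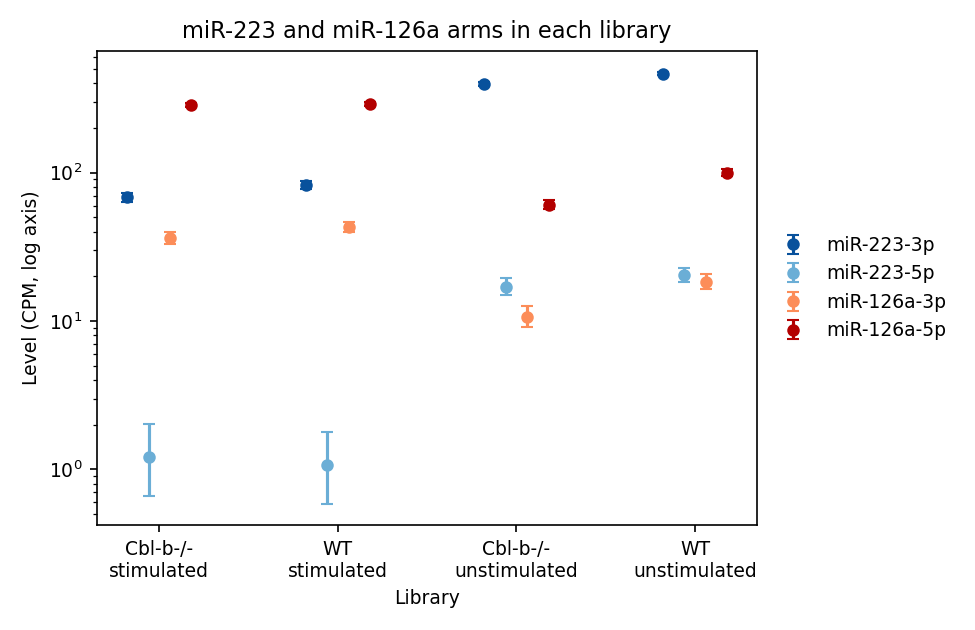
Level of each arm in each library, in CPM on a log axis, with 1 library per position; points are the measured level and bars the exact 95% counting interval. Both miR-223 arms are lower in the stimulated libraries and both miR-126a arms are higher there, with miR-126a-5p at 287 and 291 CPM and miR-223-3p at 68.2 and 82.3 CPM.

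These stimulation ratios depended on how the libraries were scaled. TMM factors, which assume that most miRNAs do not change, moved every log2 ratio by -0.60 in Cbl-b-/- and -0.61 in WT, and DESeq2 size factors by -0.54 and -0.65. The ratio of miR-126a-5p in WT then came to 0.93 and 0.89, short of 2-fold, and that of miR-126a-3p in WT to 0.61 and 0.57. The shares of all miRNAs past the rule moved as well. With TMM factors 22.4% were past it and higher in Cbl-b-/-, and 30.9% lower. In WT these shares were 22.3% and 31.4%. DESeq2 size factors gave 23.7% higher and 29.9% lower in Cbl-b-/-, and 21.8% and 31.8% in WT. The signs of all 4 arms stayed as given in both genotypes. In bulk RNA, fewer cells of a type and less RNA per cell cannot be told apart.

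The balance of the hairpins within a library needs no scaling. With both arms summed, the reads of miR-126a were 4.66 times those of miR-223 in the Cbl-b-/- stimulated library (3741 against 802 reads) and 4.01 times in the WT stimulated library (4370 against 1090). In the unstimulated libraries the order was turned, with 0.173 times as many reads in Cbl-b-/- (1003 against 5785) and 0.245 times in WT (1831 against 7486). The log2 ratio of miR-126a-3p over miR-223-3p alone was higher in stimulated than in unstimulated cells by 4.30 in Cbl-b-/- (interval 4.01 to 4.59) and 3.72 in WT (3.49 to 3.94). miR-223-3p still had 1.88 and 1.91 times the reads of miR-126a-3p in the Cbl-b-/- and WT stimulated libraries, so the turn in order rested on the 5p arm of miR-126a.

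The arms of each hairpin did not keep a fixed proportion. miR-223 gave 56.3 reads of 3p per read of 5p in the Cbl-b-/- stimulated library (interval 33.3 to 103) and 76.9 in the WT stimulated library (45.6 to 141). The unstimulated libraries gave 23.2 (20.4 to 26.5) in Cbl-b-/- and 22.6 (20.2 to 25.4) in WT. The log2 ratio of the arms was higher in stimulated cells by 1.23 (0.46 to 2.0) in Cbl-b-/- and 1.72 (0.95 to 2.48) in WT, on 14 reads of the 5p arm in each stimulated library. Among 134 hairpins with at least 10 reads of each arm in each library, 10.4% in Cbl-b-/- and 9.7% in WT had a 3p over 5p ratio at least 2-fold higher after stimulation with an interval excluding 0. By the same limits 22.4% in Cbl-b-/- and 27.6% in WT had this ratio at least 2-fold lower. In 10 hairpins in Cbl-b-/- and 3 in WT the change of this ratio lay above that of miR-223.

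In miR-126a the 5p arm led in every library, by 7.91 and 6.76 times in the Cbl-b-/- and WT stimulated libraries and by 5.69 and 5.42 times in the Cbl-b-/- and WT unstimulated libraries. The log2 ratio of 3p over 5p was lower in stimulated cells by a little, with changes of -0.48 (-0.77 to -0.19) in Cbl-b-/- and -0.32 (-0.54 to -0.10) in WT. The median absolute change over the 134 hairpins was larger, at 0.62 in Cbl-b-/- and 0.71 in WT. The 5p arm led in 79 of these hairpins in each stimulated library, and in 72 and 69 in the Cbl-b-/- and WT unstimulated libraries. Ligation during library preparation favours some ends over others, so a ratio of arms in 1 library need not be a ratio of molecules.

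**Figure D2:**
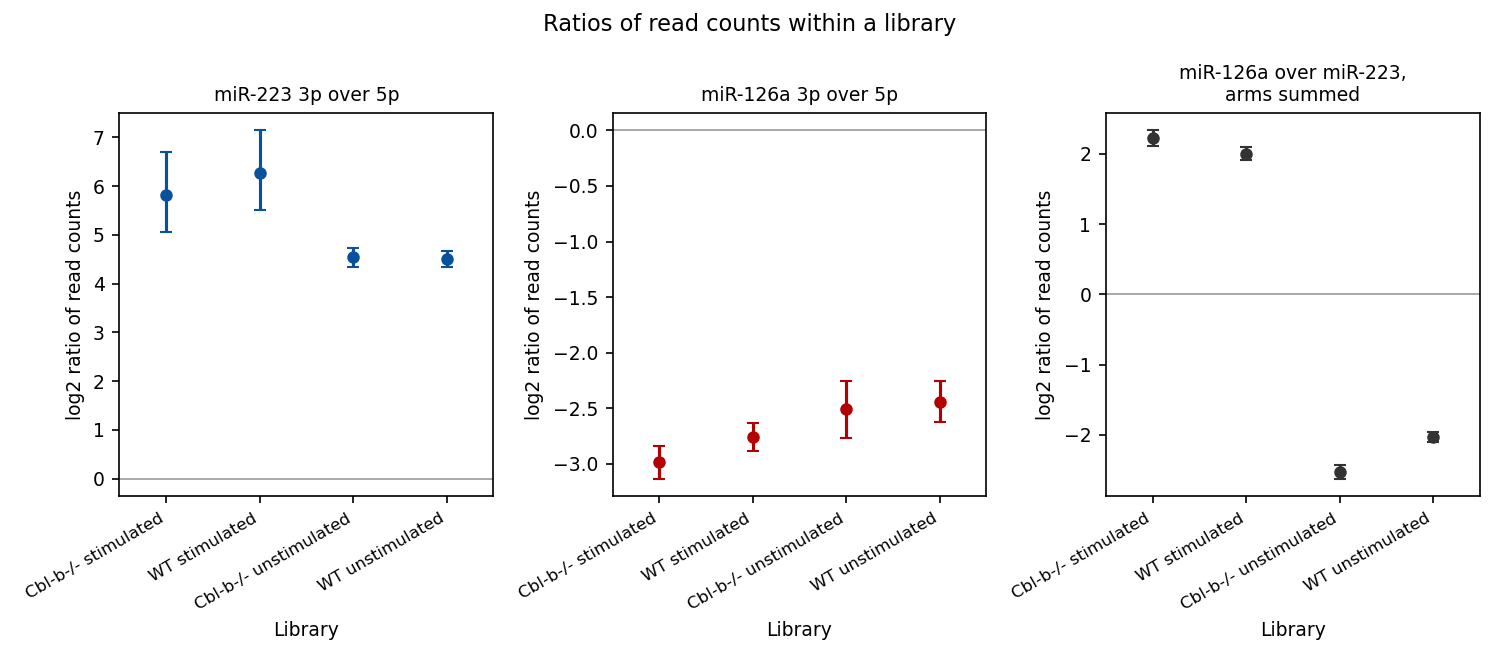
Log2 ratios of read counts within each library, for 3p over 5p of miR-223, 3p over 5p of miR-126a, and miR-126a over miR-223 with arms summed; bars are exact 95% counting intervals and the grey line marks equal counts. miR-223 is led by its 3p arm and miR-126a by its 5p arm in all 4 libraries, and the balance between the hairpins lies above the line in the stimulated and below it in the unstimulated libraries.

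The comparison of genotypes asked how the loss of Cbl-b goes with these miRNAs. They were chosen for their stimulation ratios, but from the same 4 libraries and with earlier results of these data known. The genotype values are therefore not independent of the choice. In unstimulated cells both arms of miR-126a were lower in the Cbl-b-/- library. miR-126a-3p had 0.580 times the WT level (log2 -0.79, -1.08 to -0.50) and miR-126a-5p 0.608 times (log2 -0.72, -0.84 to -0.60). None of the 4 arms was past the rule of size, but miR-126a-3p and miR-223-5p were under its 50 CPM minimum and could not be. Of 197 miRNAs over the minimum, 0.0% were past the rule and lower and 1.52% were past it and higher. By their place among all miRNAs, miR-126a-3p had the lowest and miR-126a-5p the next lowest ratio of the 307 miRNAs averaging 10 CPM or more. The median log2 ratio of these miRNAs was -0.02. In the authors' deposited table, the log2 fold change of WT over Cbl-b-/- was 0.84 for miR-126a-3p with an unadjusted p-value of 0.001, and 0.77 for miR-126a-5p with a p-value listed as 0. The scaling differs from that used here. TMM factors gave log2 ratios of Cbl-b-/- over WT of -0.84 and -0.77, and the authors' normalized counts -0.79 and -0.72. The authors' deposited table calls both unchanged, as it does 1039 of the 1091 miRNAs, and its p-values compare 2 libraries.

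In stimulated cells the genotypes lay closer together for miR-126a-5p, with 0.986 times the WT level in Cbl-b-/- (log2 -0.02, -0.09 to 0.05). miR-126a-3p had 0.844 times the WT level (log2 -0.25, -0.43 to -0.06). Here too 0.0% of 230 miRNAs were past the rule and lower, while 5.22% were past it and higher. The genotype ratio of miR-126a-5p was thus higher in stimulated than in unstimulated cells, by 0.70 in log2 (0.56 to 0.84), and that of miR-126a-3p by 0.54 (0.20 to 0.88). Of 223 miRNAs averaging 50 CPM or more in the whole series, 15 had a larger difference than miR-126a-5p, and 2.24% had one of at least 1 with an interval excluding 0. The low Cbl-b-/- unstimulated library enters this difference, the genotype ratio and the larger stimulation ratio of miR-126a in Cbl-b-/-, so the 3 are not separate observations.

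miR-223-3p was lower in Cbl-b-/- by a similar margin in both states. Its log2 ratio was -0.27 (-0.41 to -0.14) in stimulated and -0.23 (-0.28 to -0.18) in unstimulated cells, a difference of -0.04 (-0.18 to 0.10). Within the spread of all miRNAs these ratios were not extreme, since 33 of 230 and 24 of 197 miRNAs were lower. miR-223-5p had a log2 ratio of 0.18 (-1.0 to 1.36) in stimulated and -0.27 (-0.52 to -0.02) in unstimulated cells.

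**Figure D3:**
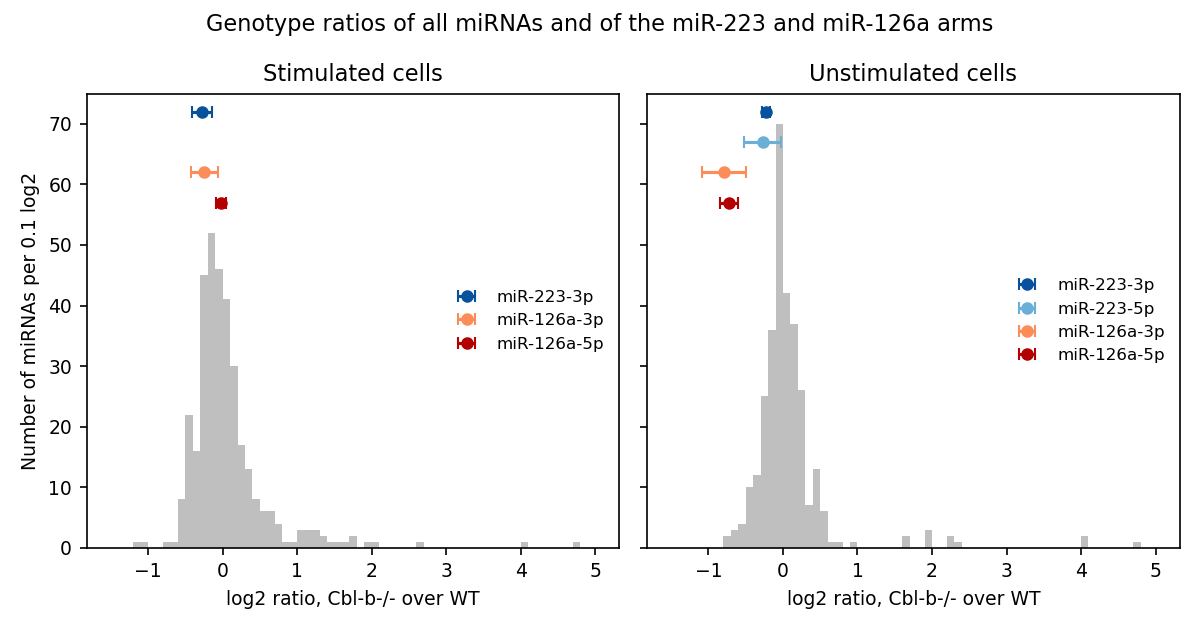
Log2 ratios of Cbl-b-/- over WT in stimulated cells (left) and unstimulated cells (right). Grey bars count all miRNAs averaging 10 CPM or more, and points with exact 95% counting intervals mark the arms over that minimum, set at arbitrary heights. Both miR-126a arms lie at the lower end in unstimulated cells, at -0.79 and -0.72, and among the other miRNAs in stimulated cells, at -0.25 and -0.02.

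A test over libraries was possible with 1 genotype effect shared by both states. This edgeR quasi-likelihood fit on all 4 libraries, with genotype and state as additive terms, leaves 1 residual degree of freedom. Its estimate of spread for a miRNA therefore draws mostly on the other miRNAs, with 5.22 prior degrees of freedom. Each SE given here was derived from the test statistic. Any difference of the genotype effect between states then counts as spread. With Benjamini-Hochberg adjustment over 603 miRNAs, 3.65% were called for genotype and none of the 4 arms was, while 1 of the 4 had an unadjusted p under 0.05, as had 13.1% of all 603. miR-126a-3p came to log2 -0.50 (SE 0.18, unadjusted p = 0.033, adjusted p = 0.30 by edgeR) and miR-126a-5p to -0.36 (SE 0.18, adjusted p = 0.47 by edgeR). miR-223-3p came to -0.25 (SE 0.11, adjusted p = 0.41 by edgeR) and miR-223-5p to -0.17 (SE 0.24, adjusted p = 0.82 by edgeR). miR-126a-3p and miR-223-3p had lower levels in Cbl-b-/- in both states. miR-126a-5p was lower in unstimulated cells and nearly equal in stimulated cells (log2 -0.02, -0.09 to 0.05). miR-223-5p was lower in unstimulated cells only. In the same fit the stimulation effects, given as a description, were -2.52 (SE 0.12) for miR-223-3p, -4.03 (SE 0.26) for miR-223-5p, 1.48 (SE 0.19) for miR-126a-3p and 1.89 (SE 0.19) for miR-126a-5p.

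Markers of other cells were read beside these values. The other myeloid miRNAs listed were both arms of miR-511, which lies in the macrophage mannose receptor gene. miR-511-3p had 3 reads in Cbl-b-/- stimulated, 9 in WT stimulated, 222 in Cbl-b-/- unstimulated and 193 in WT unstimulated cells. miR-511-5p had 4, 1, 27 and 35 reads in the same order. Of the 4 members of the myeloid list, 1, miR-223-3p, was past the rule and lower after stimulation in each genotype, and the other 3 were under the level minimum. Of all miRNAs over that minimum, 14.8% in Cbl-b-/- and 14.1% in WT were past the rule and lower. The summed level of the 4 myeloid miRNAs was 70.0, 84.1, 430.5 and 499.7 CPM, nearly all of it miR-223-3p. None was at 0 in any library. The endothelial list held no miRNA from another locus, so miR-126a could not be set against a second endothelial marker. Of 7 erythroid miRNAs, led by miR-486a-5p and miR-486b-5p, whose near-equal counts may be the same reads, the summed level was 916, 390, 1653 and 1409 CPM. After stimulation 0 of the 7 in Cbl-b-/- and 2 in WT, miR-486a-5p and miR-486b-5p, were past the rule and lower. Both had a log2 ratio of -0.92 in Cbl-b-/-, just short of 2-fold, and of -1.87 in WT. In the stimulated cells 3 of the 7 were past the rule and higher in Cbl-b-/- than in WT, as were 5.22% of all miRNAs. These were miR-486a-5p, miR-486b-5p and miR-451a, a red cell miRNA at 91.8 CPM in Cbl-b-/- and 24.4 CPM in WT. The stromal list, mainly miR-143-3p, summed to 55.4, 49.6, 177 and 172 CPM, and the epithelial list to 548, 562, 1065 and 1082 CPM. In each of these lists 1 member was past the rule and lower after stimulation in both genotypes. These were miR-143-3p (log2 -1.88 in Cbl-b-/-, -1.94 in WT) and miR-203-3p (-2.21 in each). Of 6 epithelial miRNAs averaging 10 CPM or more, 1, miR-200c-3p, was higher after stimulation (0.81 in Cbl-b-/-, 0.94 in WT). Of the 6 T lymphocyte miRNAs, 3 were past the rule and lower after stimulation in each genotype. These were miR-150-5p (log2 -1.16 in Cbl-b-/-, -1.39 in WT), miR-181a-5p (-2.64, -2.73) and miR-181b-5p (-2.53, -2.38). In this list 1 member, miR-342-3p, was higher after stimulation (0.34 in Cbl-b-/-, 0.14 in WT). The part of other cells in the miR-223 and miR-126a values was not tested.

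The miRNAs whose levels most resembled these over the 4 libraries were found by the Euclidean distance of centred log2(CPM + 1) profiles, among miRNAs averaging 50 CPM or more. The 3 nearest to miR-223-3p were miR-181a-1-3p (distance 0.27), miR-181a-5p (0.31) and miR-211-5p (0.31). miR-181a-5p tunes T cell receptor sensitivity in developing T cells, and its level was 17566, 17100, 109289 and 113595 CPM in the order above. The 3 nearest to miR-126a-3p were miR-30c-1-3p (0.28), miR-19b-3p (0.28) and let-7f-1-3p (0.42). miR-19b-3p belongs to the miR-17~92 cluster, which promotes lymphocyte proliferation, and stood at 3211, 4836, 1262 and 1885 CPM. With 4 libraries, these distances mostly follow the difference between states.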

How the data were processed

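Per the labels' protocols, total RNA of 4 samples was made into small RNA libraries with a NEB kit. The authors deposited 2 tables, 1 per state, each holding a raw read count per mature miRNA and library, per the file headers. They also hold a normalized count, a score that from the values is the deposited count divided by 1 constant per library. Other deposited columns are an unadjusted p-value, a fold change of WT over Cbl-b-/- and its log2. The submitters' processing notes name cutadapt 1.7.1 and GRCm38.p5, with no role stated. The sources used here do not give the authors' test, aligner, counter or miRNA annotation.

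Here counts were divided by the summed counts of their library. Ratios have Cbl-b-/- over WT, and stimulated over unstimulated, with a 95% interval from the exact Clopper-Pearson interval of a pair's share of reads. Where a library had 0 reads, 3 counts were used as the floor. Intervals of differences of log2 ratios used a normal approximation with 0.5 added to each count. The libraries of different states stand in separate tables, and raw counts were used across them. With 1 library per group no pair of libraries can be tested; the additive fit used edgeR 4.0.16 and was tested on simulated data, with DESeq2 1.42.0 as an alternative. Hairpins were located with RefSeq (GRCm38.p6) and GENCODE M21 (GRCm38). Named miRNAs were the 4 arms, the 3 nearest profiles of each 3p arm, and list members; miRNAs of lists under 50 CPM (both arms of miR-511 and miR-126b-3p) were named after their values were seen. The members and lists were chosen with earlier results of these data known.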

Additional observations from a re-analysis of the deposited data

Results flagged for a closer look

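The genotype ratio of miR-223-5p pointed opposite ways in the 2 states, with a log2 ratio of Cbl-b-/- over WT of 0.18 in stimulated and -0.27 in unstimulated cells, a difference of 0.45 (95% counting interval -0.63 to 1.52). It rests on 14 reads in each stimulated library, and the difference was not tested.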

How the results depend on the processing

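The stimulation ratios moved with the scaling in size and kept their direction. With TMM factors, DESeq2 size factors and sums without the 10 most abundant miRNAs, miR-223-3p had log2 ratios of -3.14, -3.07 and -2.74 in Cbl-b-/- and -3.11, -3.15 and -2.62 in WT. Under the same 3 scalings miR-126a-5p had 1.64, 1.7 and 2.03 in Cbl-b-/- and 0.93, 0.89 and 1.42 in WT. Under TMM and DESeq2 scaling 1 arm in place of 2 was past the rule in WT, since these scalings lower every ratio. The genotype ratio of miR-223-3p in unstimulated cells came to -0.28 with TMM and -0.34 with DESeq2 size factors. A minimum of 10 CPM gave 4 arms past the rule in WT, where 53.9% of all miRNAs were past it in either direction. miR-223-5p reached that minimum through its unstimulated library. No minimum gave 4 arms in each genotype, beside 38.1% of all miRNAs in Cbl-b-/- and 37.3% in WT, and a 4-fold limit gave 1 arm in WT, beside 22.3%. With a 1.5-fold limit 1 arm, miR-126a-5p, was past the rule for genotype in unstimulated cells and lower, as were 1.52% of all miRNAs. With arms summed, the change of miR-126a over miR-223 with stimulation was 4.75 in Cbl-b-/- and 4.03 in WT, in place of 4.30 and 3.72. The additive fit called 22 miRNAs for genotype, or 12 with TMM factors; the cause was not tested. None of the 4 arms was called for genotype with edgeR, with or without TMM factors or the filter, or with DESeq2. Leaving out a library was not possible, since each group has 1. The shares of hairpins with at least 50 reads per arm were an alternative chosen after seeing the data. No paired analysis was possible because each group has 1 library, so there is no second replicate number to block on; state is a term of the additive fit. Counts of 14 reads limit miR-223-5p after stimulation.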
